A study of Mus musculus with 3 samples.

Results

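Growth factor genes were followed across the lymphocytes of a mouse tumor, namely Vegfa, Pdgfa, Pdgfb, Spp1, Csf1, Csf2 and Areg, which are 7 of the 32285 genes in the expression tables and were taken by symbol. Their levels were described in cell classes chosen by the unique molecular identifiers (UMIs, each standing for 1 captured transcript) of other genes. None of the 7 decided which class a cell was put in, and the genes that did are given as a description, with no test. The data were single-cell RNA-seq of tumor-infiltrating lymphocytes (TILs) from subcutaneous MC38-Ova tumors, a mouse colon carcinoma line carrying ovalbumin, grown from 250000 injected cells in wild-type C57BL/6 Kaede mice. In these mice every cell makes the green protein Kaede, which violet light turns red irreversibly. Tumors were lit on day 13 and collected on day 15, so Kaede-green (KG+) cells had entered within the last 48 h and Kaede-red (KR+) cells had been in the tumor for longer. There were 2 KG+ libraries, labelled as biological replicates, and 1 KR+ library, all from tumors of mice given an isotype control, and mouse age was stated for the project as a whole and not for these tumors. The sort kept live CD45+ Ter119- cells with no or low CD11b, so the myeloid cells described here are those that this gate let through.

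Vegfa encodes the factor that drives new vessel growth through the receptors Flt1 and Kdr, with Nrp1 as a co-receptor. Pdgfa and Pdgfb encode the chains of platelet-derived growth factor, which acts on stromal cells and pericytes through Pdgfra and Pdgfrb. Spp1 encodes osteopontin, a secreted matrix protein and cytokine that binds Cd44 and several integrins and is best known in tumors as a product of macrophages. Csf1 and Csf2 encode M-CSF and GM-CSF, which support macrophages through Csf1r and myeloid cells through Csf2ra and Csf2rb. Areg encodes amphiregulin, an EGFR ligand known as a tissue repair product of regulatory T cells and innate lymphocytes.

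After limits of 1000 to 6000 detected genes and under 7.5% mitochondrial UMIs, 31943 cells were kept, 10000 and 11078 in the KG+ libraries and 10865 in the KR+ library, with median depths of 6438, 8007 and 11079 UMIs per cell. Values in each library are given below in the order KG+ library 1, KG+ library 2 and KR+ library. NK cells (at least 1 Ncr1 UMI and at most 1 Cd3e UMI) numbered 2602, 2666 and 3172, and CD8 T cells (at least 2 Cd3e UMIs and 1 each of Cd8a and Cd8b1) 2299, 3217 and 4044. Regulatory T cells (Tregs, at least 2 Cd3e UMIs and 1 Foxp3 UMI) numbered 375, 698 and 693, and γδ T cells (at least 1 UMI each of Cd3e and Cd163l1, which marks the IL-17-producing kind) 232, 132 and 271. Myeloid cells (at least 5 Lyz2 and 3 Cst3 UMIs and at most 1 Cd3e UMI) were few, at 27, 87 and 37. Cells that met 2 or more gates (662) were left out of the classes, as were 10456 cells that met none of them and were not B cells as described below. The libraries shared 20, 28 and 36 cell barcodes in pairs.

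The gated classes carried their markers. The summed level of 7 NK markers was 6320 to 7970 CPM (counts-per-million, a gene's UMIs relative to all UMIs of the summed cells) in NK cells against 1110 to 1730 in CD8 T cells and 3270, 3520 and 6770 in myeloid cells, that of 5 Treg markers was 5140 to 5900 CPM in Tregs against 632 to 875 in CD8 T cells, and that of 5 γδ T cell markers was 2820 to 4240 CPM in γδ T cells against 10.4 to 20.2 in CD8 T cells. In myeloid cells the NK sum came mostly from Tyrobp (2030 CPM over the libraries) and Fcer1g (1900), which both classes use, with Klrb1c at 3.59 and Eomes at 1.99 CPM. The myeloid class was uneven. Its 11 markers summed to 515, 1820 and 4970 CPM, and Apoe, C1qa, C1qb and C1qc among them were at 0 in the 27 myeloid cells of KG+ library 1. In NK cells and the 3 T cell classes the same 11 genes summed to 4.38 to 45.0 CPM. B cells (168 and 99 in the KG+ libraries and 6 in the KR+ library, too few to use) served as a background class, to set beside a low level elsewhere. They carried 409 and 363 CPM of the 11 myeloid genes in the KG+ libraries, nearly all of it Apoe (346 to 400 CPM), with Csf1r and C1qc at 0.

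The growth factors differed in the class that held most of their UMIs. NK cells held 63.4% of all Vegfa UMIs, 78.9% of Pdgfa and 60.6% of Spp1 while holding 29.5% of all UMIs. CD8 T cells held 81.7% of Csf1 and 47.4% of Csf2 against 36.6% of all UMIs. By library, NK cells held 54.9%, 39.0% and 64.9% of Spp1, and CD8 T cells 33.4%, 51.8% and 49.9% of Csf2. In KG+ library 1 CD8 T cells held 30.8% of all UMIs, so their Csf2 share there was close to that. Tregs, with 5.66% of all UMIs, held 38.1% of Areg over the 3 libraries, although in the KR+ library CD8 T cells held more of it (35.4%) than Tregs (31.6%). The plot of levels by class and library shows these patterns for the 7 genes.

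**Figure D1:**
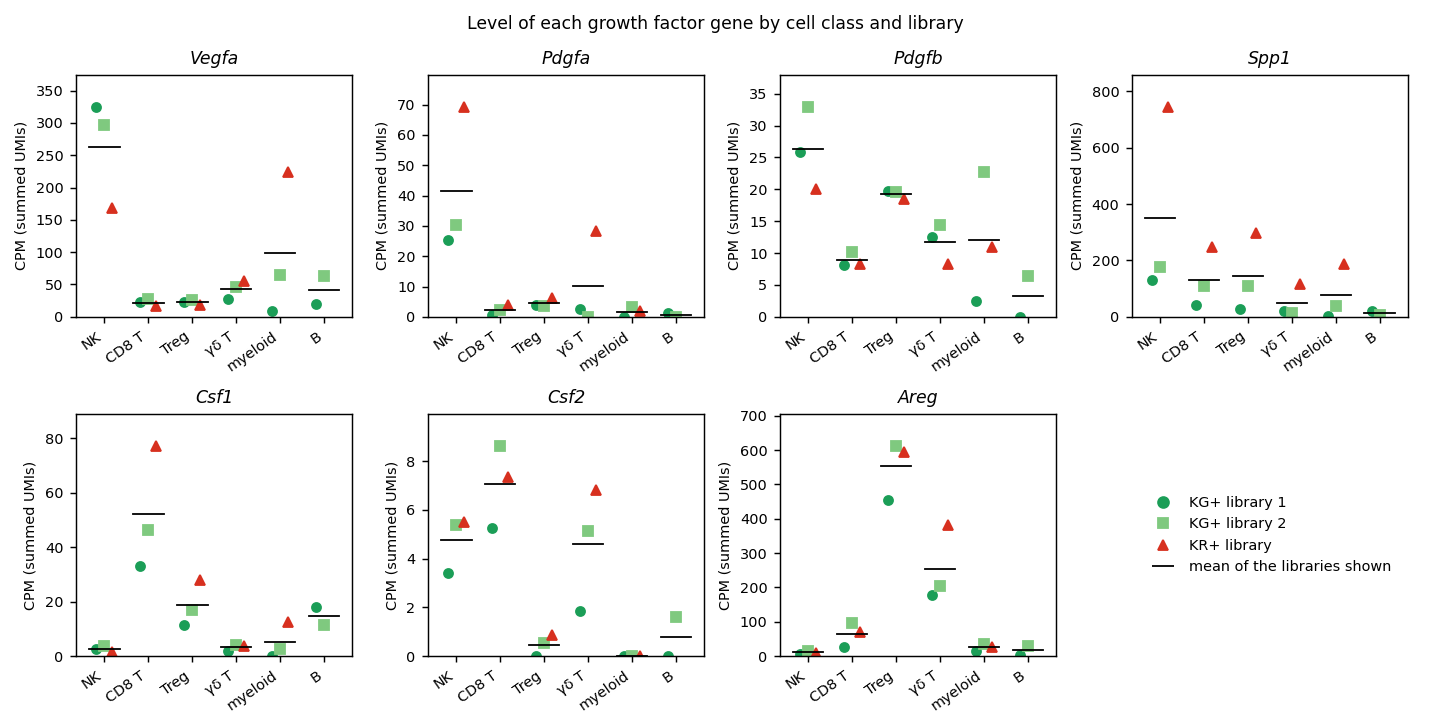
Level of each growth factor gene, in CPM of summed UMIs (linear axis), in NK, CD8 T, Treg, γδ T, myeloid and B cells. Each point is the sum of all cells of a class in 1 library, horizontal bars are means of the libraries shown, and B cells have no KR+ point because that library held 6. On average Vegfa, Pdgfa and Spp1 were highest in NK cells, Csf1 in CD8 T cells and Areg in Tregs, while in the KR+ library alone Vegfa was higher in myeloid than in NK cells.

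UMIs were summed per class and library, and the classes were compared with edgeR's quasi-likelihood test on these sums, with the library as a block and Benjamini-Hochberg adjustment over all 11907 genes tested. The 5 classes were fitted together, so each gene has 1 estimate of spread that all pairs share, the few myeloid cells included. The p-values set a class difference against that shared spread over the 3 libraries, 1 of them KR+, and not against the spread of that pair alone. With each pair fitted alone, 3741 of 12997 genes were called between NK and CD8 T cells, against 2075 of 11907 in the joint fit. Between NK and myeloid cells 1934 of 11250 were, against 4642 of 11907. Of the 70 results (7 genes in 10 pairs of classes), 44 passed an adjusted p of 0.05. Between NK and CD8 T cells 6 of the 7 genes differed, where 17.4% of all genes did, and between NK cells and Tregs all 7 differed, where 31.4% of all genes did. NK and γδ T cells differed in 5 genes (23.4% of all genes), NK and myeloid cells in 4 (39.0%), CD8 T cells and Tregs in 4 (17.3%), and CD8 and γδ T cells in 4 (19.7%). CD8 T and myeloid cells differed in 5 (41.7%), Tregs and γδ T cells in 4 (24.5%), Tregs and myeloid cells in 3 (38.7%) and γδ T and myeloid cells in 2 (37.1%). The genes had been picked with earlier results of these data known, so the counts describe these 7 genes and are no evidence that growth factors as a group stood apart. Below, some calls are said to be lost without 1 KG+ library. Calls over all genes also fell then in every pair of classes, to 954 of 12318 and 889 of 11825 between NK and CD8 T cells.

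Vegfa was the most widely detected of the 7 in NK cells. It stood at 325, 296 and 168 CPM in NK cells, against 22.2, 27.3 and 16.9 CPM in CD8 T cells and 23.2, 25.7 and 18.1 CPM in Tregs. Every NK value was above every value in the T cell classes. The mean in NK cells, 263 ± 83.5 CPM (SD, n = 3 libraries), was 11.9 times that in CD8 T cells (22.1 ± 5.2). The log2 fold change was 3.64 (SE 0.58, adjusted p = 0.000533) over CD8 T cells, 3.75 (SE 0.59, adjusted p = 0.000298) over Tregs and 2.79 (SE 0.60, adjusted p = 0.00427) over γδ T cells by edgeR, the last of which was no longer called without KG+ library 2 (adjusted p = 0.0812). In γδ T cells the level was 27.4, 46.3 and 55.0 CPM. In B cells Vegfa read 20.6 and 62.8 CPM in the KG+ libraries, on 16 and 39 UMIs. The levels in CD8 T cells, Tregs and γδ T cells were at or near that range, which came from a class not known for this gene. Whether they stand for background RNA was not tested.

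Thinning every cell to 2000 UMIs evens out the depth at which these genes were detected. The gates were set on unthinned UMIs, so which cells count in a class or subset could still depend on library depth. In thinned cells a Vegfa UMI was found in 43.4%, 40.5% and 32.1% of NK cells (71.5%, 77.5% and 81.5% unthinned). The thinned share was 3.13%, 4.20% and 2.60% in CD8 T cells, 4.27%, 4.16% and 2.45% in Tregs, and 2.98% and 6.06% in B cells of the KG+ libraries. The shares in CD8 T cells and Tregs were close to those in B cells and far below those in NK cells. Vegfa was spread over the NK cells, as the 10% of cells with most of it held 34.1% of its UMIs and no cell had more than 25.

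In myeloid cells, a usual source of this factor, Vegfa stood at 9.68, 64.7 and 224 CPM, and 1 cell carried 14.5% of the class's 227 UMIs. The 3 values spanned the range from below the T cells to above the NK cells of the same KR+ library. The difference from NK cells did not pass the test (log2 fold change 1.38, SE 0.60, adjusted p = 0.0858), and without the KR+ library it did (2.54, adjusted p = 8.56e-06). Myeloid cells were above CD8 T cells (log2 fold change of CD8 T over myeloid cells -2.26, SE 0.61, adjusted p = 0.00945) and above Tregs (-2.37, SE 0.62, adjusted p = 0.00883). Without KG+ library 2 these calls were lost, with Vegfa at adjusted p = 0.0663 and 0.0702.

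Among NK cells, Vegfa was lower where the residency integrin Itga1 (CD49a) was seen. NK cells with an Itga1 UMI and no Itgam UMI (313, 486 and 1525 cells) were compared with those with Itgam, which encodes CD11b, and no Itga1 (425, 305 and 75 cells). Vegfa stood at 383, 381 and 346 CPM in Itgam+ and at 248, 239 and 142 CPM in Itga1+ NK cells, with no overlap. The log2 fold change of Itga1+ over Itgam+ cells was -0.76 (SE 0.11, adjusted p = 8.16e-05 by edgeR, where 37.8% of 9453 genes were called and 3 of the 7 members were). NK cells with neither or both integrins lay between, at 337, 309 and 207 CPM.

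By color, Vegfa was lower in KR+ than in KG+ NK cells, at 0.540 of the KG+ level. With 1 KR+ library there is no test, so a ratio is set against the difference between the 2 KG+ libraries and called past it when both KR+ to KG+ ratios point the same way and each is larger than that difference. For Vegfa in NK cells the log2 ratios were -0.96 and -0.82, and the KG+ libraries differed by -0.13. In NK cells 57.5% of 14482 genes with at least 10 UMIs were past their KG+ difference, as were 5 of the 7 growth factors. In Itga1+ cells the mean log2 ratio of Vegfa was -0.78 (43.5% of genes there past their KG+ difference), and in Itgam+ cells -0.14 (51.8%) on 75 KR+ cells. After thinning, 39.9%, 34.6% and 26.2% of Itga1+ NK cells had a Vegfa UMI, and 46.8%, 47.5% and 56.0% of Itgam+ NK cells.

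Pdgfa, the A chain of platelet-derived growth factor, was an NK cell transcript in these libraries. It read 25.4, 30.2 and 69.2 CPM in NK cells. CD8 T cells read 0.613, 2.31 and 3.98 CPM and Tregs 4.04, 3.72 and 6.28 CPM, all under the lowest NK value. The log2 fold change of NK over CD8 T cells was 4.29 (SE 0.41, adjusted p = 8.22e-06) and over Tregs 3.34 (SE 0.44, adjusted p = 7.02e-05), by edgeR. Over myeloid cells it was 3.97 (SE 0.79, adjusted p = 0.00145), which rested on 6 myeloid UMIs. A gene on the opposite strand, 6330403L08Rik, overlaps Pdgfa.

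The γδ T cells read 2.49, 0 and 28.2 CPM of Pdgfa. The high KR+ value came from few cells, since 1 cell held 30 of the 62 UMIs in the class. CD8 T cells were called below γδ T cells (log2 fold change -2.12, SE 0.55, adjusted p = 0.0166), and without the KR+ library Pdgfa differed by 0.03 (adjusted p = 0.992). The NK call over γδ T cells (2.18, SE 0.48, adjusted p = 0.00536) was lost without KG+ library 1, at adjusted p = 0.0759.

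Within NK cells Pdgfa went the other way from Vegfa. Itga1+ cells read 43.0, 33.1 and 74.6 CPM and Itgam+ cells 7.27, 2.56 and 30.6 CPM. Itga1+ cells were higher within each library, although the Itgam+ value of the KR+ library, on 75 cells, came close to the lowest Itga1+ value. The log2 fold change was 2.46 (SE 0.26, adjusted p = 3.2e-06). KR+ NK cells had 2.49 times the KG+ level, with log2 ratios of 1.44 and 1.20 against a KG+ difference of 0.25, and within Itga1+ cells the mean log2 ratio was 0.98. A Pdgfa UMI was seen in 2.69%, 2.93% and 8.67% of thinned NK cells, so few cells showed it at that depth. The 10% of NK cells with most Pdgfa held 100%, 97.1% and 66.9% of its UMIs by library, and 84.6% with the libraries pooled.

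Pdgfb, the B chain, was spread more evenly over the classes. NK cells read 25.8, 32.9 and 20.1 CPM, Tregs 19.8, 19.6 and 18.4 CPM, and CD8 T cells 8.16, 10.1 and 8.25 CPM. NK cells and Tregs did not overlap with CD8 T cells and lay near each other. NK cells were above CD8 T cells (log2 fold change 1.60, SE 0.20, adjusted p = 7.82e-05) and Tregs were above CD8 T cells (log2 fold change of CD8 T cells over Tregs -1.0, SE 0.21, adjusted p = 0.00454), by edgeR. The second of these calls was lost without KG+ library 2, where Pdgfb had an adjusted p of 0.0568.

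The NK and Treg levels of Pdgfb differed by 0.60 in log2 (SE 0.20, adjusted p = 0.0399), a call that was lost without KG+ library 1 or 2 (adjusted p = 0.0777 and 0.296). NK cells were above γδ T cells, which read 12.5, 14.4 and 8.27 CPM (log2 fold change 1.31, SE 0.27, adjusted p = 0.00323). Myeloid cells read 2.42, 22.7 and 10.9 CPM, and a single cell gave 17 of their 42 Pdgfb UMIs. They were called above CD8 T cells (log2 fold change of CD8 T over myeloid cells -0.86, SE 0.32, adjusted p = 0.0443), and with the top cell of each sum left out Pdgfb was at 0.16 (adjusted p = 0.771). The difference between Itga1+ and Itgam+ NK cells was not called (-0.32, SE 0.15, adjusted p = 0.105). B cells read 0 and 6.45 CPM in the KG+ libraries, and Gm41361 overlaps Pdgfb on the opposite strand.

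Spp1 was the most abundant of the 7 transcripts, with 88802 UMIs in all kept cells, and most of them lay in NK cells (60.6%) and CD8 T cells (25.2%). Myeloid cells held 0.181% of them and 0.672% of all UMIs, and cells of no class held 8.83%. Spp1 read 130, 178 and 744 CPM in NK cells, 40.8, 108 and 248 CPM in CD8 T cells, and 28.7, 109 and 297 CPM in Tregs. Within each library NK cells were the highest of the 3, and across libraries the classes overlapped widely, because the KR+ library was the highest in each class.

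NK cells were above CD8 T cells in Spp1 by 1.38 in log2 (SE 0.36, adjusted p = 0.0177) and above Tregs by 1.55 (SE 0.37, adjusted p = 0.00613). The first of these calls was lost without KG+ library 1 (adjusted p = 0.118) or KG+ library 2 (0.0603), and the second without KG+ library 1 (0.074). The difference from γδ T cells, 3.03 (SE 0.42, adjusted p = 0.000174), and from myeloid cells, 2.36 (SE 0.42, adjusted p = 0.00067), was called with any library left out. With no library block, NK cells were not called above any of the 4 classes in Spp1 (adjusted p = 0.449, 0.322, 0.0824 and 0.155 in the order above). CD8 T cells were also above γδ T cells (1.65, SE 0.41, adjusted p = 0.0134), as were Tregs (1.48, SE 0.41, adjusted p = 0.0201), and both calls were lost without KG+ library 2 (adjusted p = 0.185 and 0.292). In the γδ T cells of KG+ library 1, a single cell gave 30 of 32 Spp1 UMIs, and in those of the KR+ library a single cell gave 134 of 243.

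As osteopontin is known as a macrophage product, Spp1 was set beside myeloid RNA in each class. For each UMI of the 11 myeloid markers, NK cells had 8.87, 4.69 and 89.7 Spp1 UMIs and CD8 T cells 2.74, 2.40 and 22.4. Myeloid cells had 0.00469, 0.0202 and 0.0378. In each library the ratio in NK and CD8 T cells was far above that in the myeloid cells captured here. Those were few and had no or low CD11b, so the ratio cannot speak for macrophages that the sort removed. Whether Spp1 RNA of such macrophages entered the lymphocyte sums was not tested. B cells read 19.3 and 8.06 CPM of Spp1 in the KG+ libraries, and the Itgam+ NK cells of those libraries, at 24.5 and 27.3 CPM, were not far above them.

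Within NK cells Spp1 followed Itga1. It read 415, 369 and 953 CPM in Itga1+ cells and 24.5, 27.3 and 352 CPM in Itgam+ cells, with a log2 fold change of 2.97 (SE 0.32, adjusted p = 4.41e-06). The lowest Itga1+ value was just above the highest Itgam+ value. Cells with neither or both integrins lay between within each library, at 64.3, 119 and 401 CPM. A minority of cells gave most of the transcript. The 10% of NK cells with most Spp1 held 99.5%, 92.3% and 73.1% of its UMIs by library, and 88.7% with the libraries pooled. The top cell had 988, and 8.95%, 12.1% and 36.8% of Itga1+ cells had at least 10.

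In CD8 T cells Spp1 was higher where Havcr2 (TIM-3), a receptor of exhausted T cells, was seen. Havcr2+ cells (459, 1101 and 1936) read 103, 171 and 328 CPM and Havcr2- cells (1840, 2116 and 2108) 16.6, 63.5 and 142 CPM. The Havcr2+ value was the higher in each library, although the ranges overlapped across libraries. The log2 fold change was 1.63 (SE 0.22, adjusted p = 0.00187 by edgeR, where 26.6% of 12207 genes were called and 3 of the 7 members were).

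By color, Spp1 was higher in the KR+ library in each of the 5 classes, and past the KG+ difference in 2. In NK cells it was 4.90 times the KG+ level, with log2 ratios of 2.52 and 2.06 against a KG+ difference of 0.46. The γδ T cell ratio was past it too (2.82), with log2 ratios of 2.55 and 3.09 against a KG+ difference of -0.54. As given above, single cells held most of the Spp1 UMIs of γδ T cells in KG+ library 1 and in the KR+ library. CD8 T cells (mean log2 ratio 1.90), Tregs (2.40) and myeloid cells (4.02) were not past it, since the KG+ libraries themselves differed by 1.41, 1.92 and 3.36. Within Havcr2+ CD8 T cells Spp1 was past it (log2 ratios 1.66 and 0.94 against 0.73). Within Itga1+ NK cells, which were more numerous in the KR+ library, the mean log2 ratio was 1.28. Within Itgam+ cells it was 3.76 on 75 KR+ cells. Thinned to 2000 UMIs, 5.38%, 8.89% and 30.8% of NK cells and 2.44%, 6.34% and 15.0% of CD8 T cells had an Spp1 UMI.

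**Figure D2:**
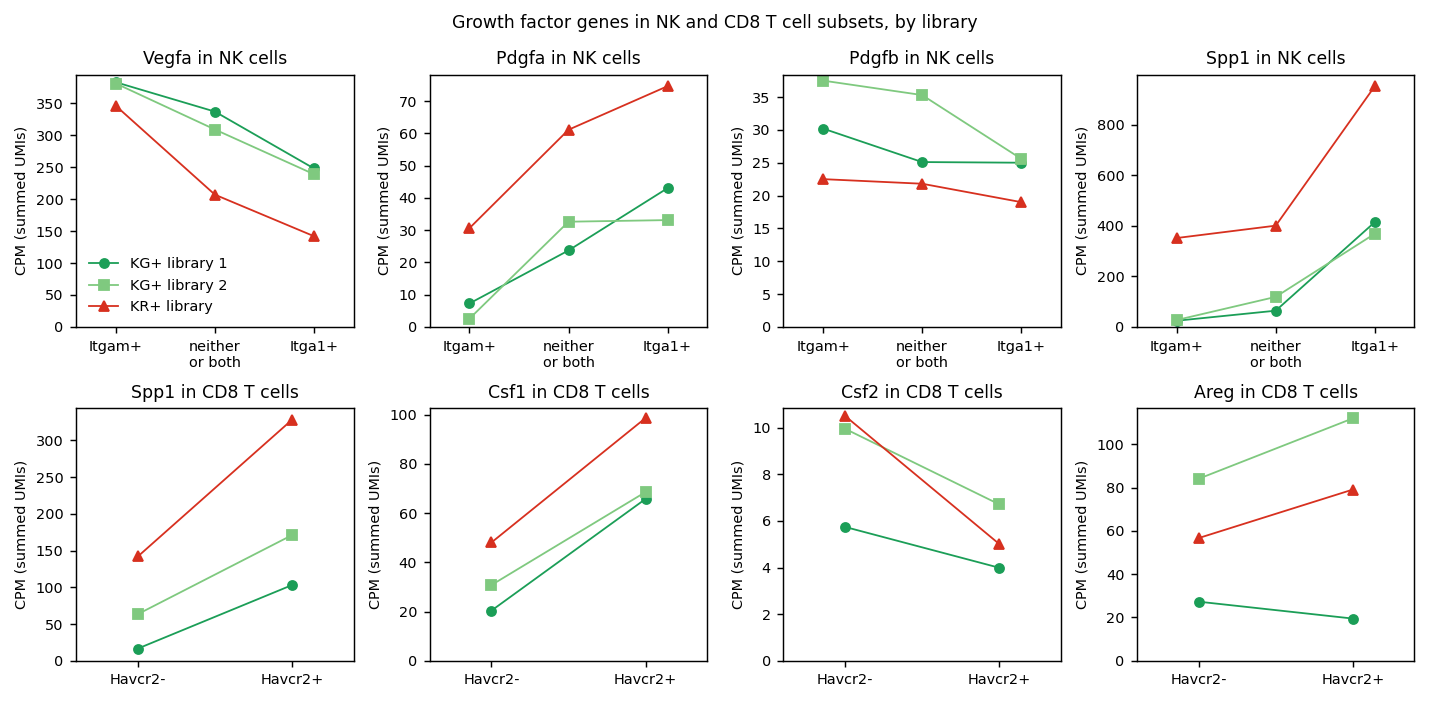
Levels (CPM of summed UMIs, linear axes from 0) in NK cells split by Itgam and Itga1 (top row: Vegfa, Pdgfa, Pdgfb, Spp1) and in CD8 T cells split by Havcr2 (bottom row: Spp1, Csf1, Csf2, Areg). Each line joins the subsets of 1 library and orders no time. Vegfa was lower, and Pdgfa and Spp1 higher, in Itga1+ than in Itgam+ NK cells of each library, and Spp1 and Csf1 were higher, and Csf2 lower, in Havcr2+ than in Havcr2- CD8 T cells.

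Csf1, the macrophage growth factor, stood highest in CD8 T cells. They read 33.0, 46.4 and 77.0 CPM, Tregs 11.3, 17.1 and 27.8 CPM, NK cells 2.52, 3.73 and 1.67 CPM and γδ T cells 1.87, 4.12 and 3.89 CPM. Every CD8 T value was above every value in the other classes. B cells read 18.1 and 11.3 CPM in the KG+ libraries, on 21 UMIs in all, so the Treg level was close to that of B cells. CD8 T cells were above NK cells (log2 fold change of NK over CD8 T cells -4.22, SE 0.35, adjusted p = 2.36e-06), above γδ T cells (4.08, SE 0.51, adjusted p = 0.000107) and above myeloid cells (3.39, SE 0.58, adjusted p = 0.000435), by edgeR. The step from CD8 T cells down to Tregs, 1.60 (SE 0.31, adjusted p = 0.00286), was called with all libraries and lost without KG+ library 1 (adjusted p = 0.0692) or KG+ library 2 (0.0542).

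Tregs were in turn above NK cells in Csf1 (log2 fold change of NK cells over Tregs -2.62, SE 0.35, adjusted p = 8.1e-05) and above γδ T cells (2.48, SE 0.56, adjusted p = 0.00615, lost without KG+ library 1 at 0.0621). They were also called above myeloid cells (1.79, SE 0.65, adjusted p = 0.0444), on 11 myeloid UMIs, a call lost without KG+ library 1 (0.127) or KG+ library 2 (0.359). NK and γδ T cells did not differ detectably (-0.14, SE 0.66, adjusted p = 0.915), with 15 γδ T cell UMIs.

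Among CD8 T cells, Csf1 was higher in Havcr2+ cells, at 65.8, 68.6 and 98.7 CPM against 20.4, 30.8 and 48.1 CPM. The subsets did not overlap, and the log2 fold change was 1.22 (SE 0.11, adjusted p = 0.000405). In thinned cells a Csf1 UMI was found in 14.4%, 13.2% and 17.6% of Havcr2+ cells and in 2.94%, 6.29% and 8.82% of Havcr2- cells. The 10% of Havcr2+ cells with most Csf1 held 46.5% of its UMIs, and no cell had more than 24. After thinning, a Csf1 UMI was found in 66, 145 and 340 Havcr2+ cells and an Spp1 UMI in 27, 109 and 383.

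By color, KR+ CD8 T cells had 1.97 times the KG+ level of Csf1, with log2 ratios of 1.22 and 0.73 against a KG+ difference of 0.49, in a class where 47.5% of 15087 genes were past theirs (21.9% in the higher direction) and 2 of the 7 members were. Tregs had 2.00 times, with log2 ratios of 1.29 and 0.70 against 0.59 (39.6% of 12441 genes, 21.8% in the higher direction, and 4 of the 7 members). NK cells had 0.543 times, at a level under 4 CPM. The CD8 T cell ratio was 0.55 within Havcr2+ cells, where 36.0% of genes were past their KG+ difference, and 0.94 within Havcr2- cells, where 47.3% were.

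The 250 bases before the start of Csf1 are printed because they hold a match to the motif of NF-kB, a family of factors active in stimulated T cells. They are chr3:107760470-107760719 on the minus strand (RefSeq, GRCm38.p6), and the gene spans chr3:107741048-107760469 in GENCODE on the same build. The capitals mark the match, which is on the other strand and lies 154 to 145 bases before the start. Such a match stood in 1.41% of 32851 windows of this length.
Csf1: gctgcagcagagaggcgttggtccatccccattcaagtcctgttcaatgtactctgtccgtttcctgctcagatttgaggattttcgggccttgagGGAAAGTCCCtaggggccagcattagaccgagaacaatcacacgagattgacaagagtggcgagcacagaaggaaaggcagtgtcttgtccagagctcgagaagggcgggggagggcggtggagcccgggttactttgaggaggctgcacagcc

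Csf2, which encodes GM-CSF, was the scarcest of the 7, with 2120 UMIs in all kept cells. CD8 T cells read 5.25, 8.61 and 7.37 CPM, NK cells 3.42, 5.38 and 5.51 CPM and γδ T cells 1.87, 5.14 and 6.81 CPM, the last on 22 UMIs in all. The 3 classes overlapped, and none of their pairs differed past the threshold (log2 fold change of NK over CD8 T cells -0.52, SE 0.25, adjusted p = 0.202). Without the KR+ library, NK cells were called below CD8 T cells in Csf2 (-0.64, adjusted p = 0.0256). Gm12223 overlaps Csf2 on the opposite strand.

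Tregs had almost no Csf2, at 0, 0.531 and 0.857 CPM on 11 UMIs. CD8 T cells were above them by 3.98 in log2 (SE 0.39, adjusted p = 3.83e-05), NK cells by 3.46 (SE 0.40, adjusted p = 5.98e-05), and Tregs were below γδ T cells (log2 fold change -3.27, SE 0.54, adjusted p = 0.0014). Where cells meeting several gates were kept in each of their classes, all 3 calls were lost (1.13, 0.59 and -0.97 in log2, adjusted p = 0.197, 0.444 and 0.361), and such cells held 5.66% of all Csf2 UMIs. Myeloid cells had 0 UMIs in 151 cells, which allows up to 1.20 CPM of Csf2 over their sum. Against that limit the level was at least 6.15-fold higher in CD8 T cells, at least 4.26-fold higher in NK cells and, on 22 UMIs, at least 3.97-fold higher in γδ T cells. These differences were called by edgeR (adjusted p = 0.00108, 0.00318 and 0.00697) and lost without KG+ library 2 (0.0714, 0.111 and 0.15), which held 87 of the 151 myeloid cells.

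Csf2 came from few cells. A Csf2 UMI was found in 2.35%, 3.26% and 3.66% of CD8 T cells and in 0 and 1.01% of B cells of the KG+ libraries, 1 Itga1+ NK cell held 61 UMIs, and in Itgam+ NK cells a single cell held 23 of 38. In KG+ library 2, 5 mast cell and basophil markers summed to 23.4 CPM in NK cells and 26.4 CPM in Itgam+ NK cells. In the other libraries they summed to 0.101 and 1.8 CPM in NK cells and to 0 in Itgam+ NK cells. Whether mast cell or basophil RNA gave part of the NK Csf2 was not tested. Csf2 was lower in Havcr2+ than in Havcr2- CD8 T cells, at 3.99, 6.71 and 5.01 CPM against 5.74, 9.95 and 10.5 CPM. Havcr2+ cells were lower within each library, and the log2 fold change was -0.82 (SE 0.13, adjusted p = 0.00402). With no library block, neither this difference nor those of Spp1 and Csf1 between the same subsets was called. Of all 12207 genes 40 were called between these subsets without the block, against 3244 with it, so the loss was not particular to these genes. No class had a color ratio of Csf2 past the KG+ difference.

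Areg, the EGFR ligand amphiregulin, was led by Tregs. They read 456, 611 and 593 CPM, and γδ T cells 177, 203 and 382 CPM. CD8 T cells read 25.1, 95.7 and 69.5 CPM, myeloid cells 14.5, 35.6 and 27.3 CPM, and NK cells 7.1, 15.8 and 8.9 CPM. The Treg, γδ T and CD8 T cell ranges did not overlap, and B cells read 2.58 and 30.6 CPM in the KG+ libraries, the second with 13 of its 19 UMIs in 1 cell.

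Tregs had 52.2 times the mean Areg level of NK cells (log2 fold change of NK cells over Tregs -5.60, SE 0.34, adjusted p = 1.27e-07) and 8.72 times that of CD8 T cells (CD8 T cells over Tregs -3.16, SE 0.30, adjusted p = 1.01e-05), by edgeR. Their lead over γδ T cells was smaller, 1.1 in log2 (SE 0.28, adjusted p = 0.0137), and was no longer called without KG+ library 1 (adjusted p = 0.125) or KG+ library 2 (0.0813). The γδ T cells were above CD8 T cells (CD8 T over γδ T cells -2.06, SE 0.29, adjusted p = 0.000315) and NK cells (NK over γδ T cells -4.51, SE 0.33, adjusted p = 7.55e-07). Tregs and γδ T cells were above myeloid cells by 4.17 (SE 0.36, adjusted p = 2.21e-06) and 3.08 (SE 0.36, adjusted p = 3.11e-05).

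The NK level of Areg was the lowest of the classes. It was below that of CD8 T cells (log2 fold change -2.44, SE 0.30, adjusted p = 6.2e-05) and was called below that of myeloid cells (-1.43, SE 0.37, adjusted p = 0.0083), although with the top cell of each sum left out the second was -0.54 (adjusted p = 0.457). The CD8 T cell lead over myeloid cells in Areg, 1.01 (SE 0.36, adjusted p = 0.0361), was lost when any 1 library was left out (adjusted p = 0.0502 to 0.142).

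In thinned cells an Areg UMI was found in 28.8%, 34.1% and 31.5% of Tregs and in 15.5%, 18.2% and 22.5% of γδ T cells. Of all Tregs 19.0% had at least 10 Areg UMIs, the top cell had 174, and the 10% of Tregs with most Areg held 67.0% of it. In CD8 T cells the 10% with most held 98.4%, so the CD8 T cell level came from few cells. Areg did not differ detectably between Havcr2+ and Havcr2- CD8 T cells (0.20, SE 0.16, adjusted p = 0.384) or between Itga1+ and Itgam+ NK cells (0.44, SE 0.31, adjusted p = 0.295). By color only γδ T cells were past the KG+ difference, at 2.02 times the KG+ level with log2 ratios of 1.11 and 0.91 against 0.20, in a class where 31.0% of 10204 genes were past theirs and 4 of the 7 members were. In Tregs the mean log2 ratio was 0.17.

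Areg lies between Ereg and Btc on chromosome 5 (chr5:91139599-91148432, plus strand), 2 other EGFR ligand genes, and neither was expressed with it. Ereg had 0 UMIs in Tregs and in γδ T cells, and Btc had 1 and 0. The 250 bases before the start of Areg, chr5:91139349-91139598 on the plus strand (RefSeq, GRCm38.p6), are printed because they hold a full cAMP response element, TGACGTCA, which reads the same on both strands. It stands in capitals, 61 to 54 bases before the start, and 1.55% of the 32851 windows held such a match.
Areg: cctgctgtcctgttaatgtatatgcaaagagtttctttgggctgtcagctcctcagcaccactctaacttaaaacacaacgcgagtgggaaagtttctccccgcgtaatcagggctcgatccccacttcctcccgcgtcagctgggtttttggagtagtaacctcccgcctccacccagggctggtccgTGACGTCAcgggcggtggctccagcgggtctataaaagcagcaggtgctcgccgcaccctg

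The same search used ACGTG, the core of the hypoxia response element (16.6% of windows, both strands), and the AP-1 motif TGANTCA (6.75%). Among the other members, the windows of Pdgfa, Spp1 and Csf2 and the window at the first listed Vegfa start held none of the 4 motifs, and the window of a second listed Vegfa start held ACGTG. Pdgfb had no listed window and was not searched. A match is a run of letters and not a shown site.

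**Figure D3:**
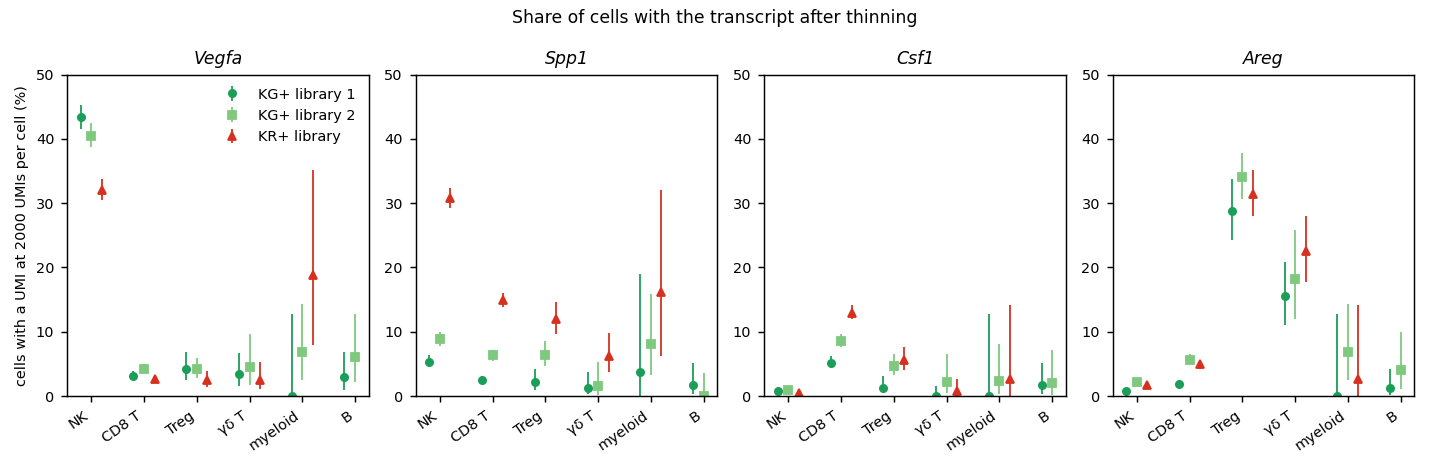
Share of cells with at least 1 UMI of Vegfa, Spp1, Csf1 and Areg (%, linear axis) after each cell was thinned to 2000 UMIs, by class and library. Bars are exact 95% binomial intervals, which cover counting error only. Vegfa stood apart in NK cells, Spp1 was highest in KR+ NK cells, Csf1 was highest in CD8 T cells and Areg in Tregs and γδ T cells.

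Across the 5 classes, 16 of the 35 color ratios of the 7 genes were past the difference between the KG+ libraries. Of all genes, 57.5% were past theirs in NK cells, 47.5% in CD8 T cells, 39.6% in Tregs and 31.0% in γδ T cells. Myeloid cells had 1, Csf1, on 11 UMIs, where 50.7% of 8668 genes were past theirs. The count of 16 is near the share of all genes and does not set these 7 genes apart. In NK cells Pdgfb was past it in the lower direction (mean log2 ratio -0.54), with Vegfa and Csf1, while Pdgfa and Spp1 were past it in the higher direction. The libraries also differed in depth, with medians of 6129.5, 8167.5 and 17227.5 UMIs per NK cell, and the part of depth in these ratios was not tested. The median log2 ratio of all genes in NK cells was -0.17. With TMM-scaled totals the NK ratios were -0.71 for Vegfa, 1.5 for Pdgfa and 2.47 for Spp1, and those of Pdgfb (-0.36) and Csf1 (-0.70) were no longer past the KG+ difference.

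**Figure D4:**
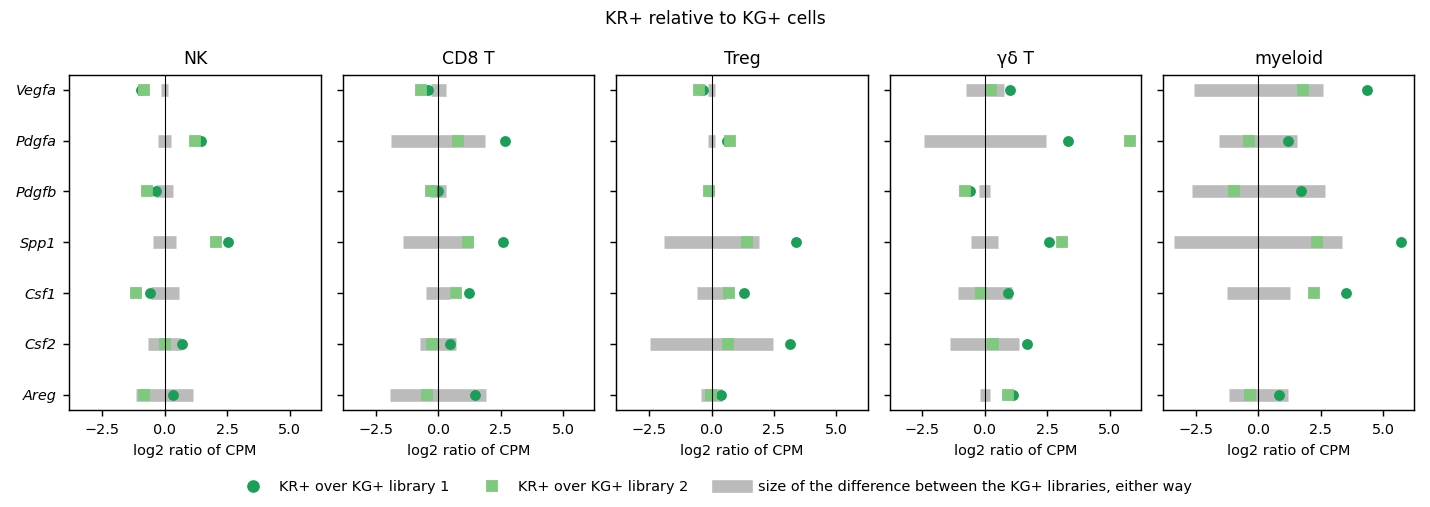
Log2 ratio of CPM (0.5 added to each count) of the KR+ library to each KG+ library, for the 7 genes in 5 classes. Points are the 2 ratios, and gray bars reach as far either way as the KG+ libraries differed from each other, so a gene whose points both lie beyond the same end of its bar is past that difference. In NK cells Spp1 and Pdgfa lie to the right of their bars and Vegfa to the left, and no ratio has a test because there is 1 KR+ library. Csf2 had no UMI in myeloid cells and has no points there.

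The receptors of these factors were looked for in the same classes, from a list of 17. Flt1, Kdr, Pdgfra, Pdgfrb, Egfr and Erbb2 were each at 1.31 CPM or less on average in every lymphocyte class. Csf1r, the receptor of M-CSF, averaged 125 ± 117 CPM (SD, n = 3 libraries) in myeloid cells and 0.325 to 0.848 CPM in the lymphocyte classes, and Csf2rb, the signaling chain of the GM-CSF receptor, 320 ± 27.1 CPM against 2.70 to 9.35 CPM. The log2 fold change of NK over myeloid cells was -8.69 (SE 0.91, adjusted p = 7.61e-06) for Csf1r and -7.20 (SE 0.82, adjusted p = 1.54e-05) for Csf2rb. Of 11 receptors tested there, 3 were higher in NK cells, where 20.6% of all genes were, and 7 higher in myeloid cells, where 2193 of 11907 genes were, with a median of -2.50 where that of all genes was 0.21. The filter on low counts keeps a gene with enough UMIs in any class, so a receptor seen mainly in myeloid cells can enter these counts through them alone. Cd44, which binds osteopontin, averaged 132 to 227 CPM in the lymphocyte classes and 395 CPM in myeloid cells.

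Between NK and CD8 T cells, 3 of 11 receptors tested were higher in NK cells and 1 lower (median log2 fold change 0.23, all genes 0.01), where 8.31% of all genes were higher in NK cells. Nrp1, the VEGF co-receptor, was the lower (4.51 against 33.7 CPM, log2 fold change -2.82, SE 0.28, adjusted p = 1.13e-05), and the osteopontin-binding integrin chains Itgb3 (1.60) and Itga4 (1.29) were higher. Itga1+ NK cells had more Itgb3 (1.28) and less Itga4 (-1.31) than Itgam+ cells, with 3 receptors higher and 2 lower of 8 tested (median 0.38). Of all genes 19.5% were higher there and 1725 of 9453 lower.

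Of 23 other growth factors, 6 passed the filter on low counts in the class comparisons. That filter keeps a gene with enough UMIs in any class compared, so a factor seen mainly in NK cells can enter through them alone. The counts and medians below can depend on this and describe only the factors tested. Between NK and CD8 T cells 3 were higher in NK cells and none lower (median 1.56, all genes 0.01), where 8.31% of all genes were higher. Vegfc, the lymphatic relative of Vegfa, averaged 18.3 ± 7.46 CPM in NK cells and 0.877 CPM in CD8 T cells (log2 fold change 4.42, SE 0.27, adjusted p = 9.2e-07), followed by Osm (2.17) and the EGFR ligand Tgfa (1.93). Vegfc was also higher in Itga1+ than in Itgam+ NK cells (0.88, SE 0.21, adjusted p = 0.00353), the reverse of Vegfa. There 2 of 4 factors tested were higher and none lower (median 0.51), where 19.5% of all genes were higher. Hbegf, another EGFR ligand, was higher in Tregs than in CD8 T cells (CD8 T cells over Tregs -1.87, SE 0.43, adjusted p = 0.00809), at 4.93 against 1.24 CPM.

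Vegfa is a classic target of hypoxia, so 20 hypoxia-induced genes were set beside it. Between NK and CD8 T cells, where Vegfa was higher in NK cells, none of 18 tested was higher in NK cells and 7 were lower (median -0.56, all genes 0.01). Of all genes 8.31% were higher there and 1086 of 11907 lower. The 7 were led by Mxi1 (-2.07), Ankrd37 (-1.89) and Bnip3 (-1.36). Between Itga1+ and Itgam+ NK cells, where Vegfa was lower in Itga1+ cells, 11 of 18 were higher and 3 lower (median 0.74, all genes -0.01, with 19.5% of all genes higher), led by Ankrd37 (1.87), Pgk1 (1.55) and Tpi1 (1.36). The part of hypoxia in the Vegfa level was not tested in any comparison here. Between NK and γδ T cells, where Vegfa was also higher in NK cells, 6 of 18 were higher in NK cells and 4 lower (median 0.56, all genes 0.05). Of all genes 10.7% were higher there and 1516 of 11907 lower. In Havcr2+ CD8 T cells 17 of 19 were higher and none lower (median 0.75, with 13.2% of all genes higher), led by Bnip3 (1.81), Ak4 (1.28) and Tpi1 (1.05), and Vegfa did not pass the test (-0.28, SE 0.13, adjusted p = 0.143).

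Immediate early genes, which respond within minutes to stimulation or to tissue handling, were lower in Itga1+ NK cells, with 13 of 16 lower and none higher (median -0.93, all genes -0.01), where 1725 of 9453 genes were lower, led by Dusp1 (-1.27), Ier3 (-1.13) and Ier2 (-1.09). Vegfa was lower in the same comparison, and whether it is linked to these genes was not tested. Between NK and CD8 T cells 4 of 16 were higher in NK cells and none lower (median 0.39, all genes 0.01), where 8.31% of all genes were higher, led by Egr2 (1.57), Jun (1.00) and Dusp2 (0.79). Tissue repair Treg genes were higher in Tregs along with Areg. Of 13, 11 were higher in Tregs than in CD8 T cells and none lower (median of CD8 T cells over Tregs -1.41, all genes 0.01), in a comparison where 17.3% of all genes were called and 7.89% were higher in CD8 T cells, led by Pparg (-5.69), Il10 (-5.68) and Klrg1 (-5.32). Between Tregs and γδ T cells 8 were higher in Tregs and 1 lower (median 2.65, with 11.7% of all genes higher in Tregs), while Areg differed by 1.1.

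Likeness of pattern was measured by Pearson's r of log2(CPM + 10) over 24 sums (8 groups of cells in 3 libraries), among genes of at least 20 CPM on average. The sums share libraries and depths, so r is a description. Vegfa was most like Hes1 (0.964), Pxn (0.952) and Sulf2 (0.934), and Pdgfa most like Cant1 (0.878), Gcsh (0.841) and Gzmc (0.819). Spp1 was most like the granzymes Gzmc (0.854), Gzmd (0.849) and Gzme (0.796), and Pdgfb most like Tmem37 (0.807), Ifi44 (0.794) and Ppig (0.785). Csf1 was most like Cox17 (0.932), Themis (0.918) and Il21r (0.883), Areg most like Tap2 (0.931), Mif4gd (0.922) and Cmtm7 (0.898), and Csf2 most like Gm29243 (0.767), Vps13a (0.746) and Atp10a (0.740). Between members the values were 0.773 for Vegfa and Pdgfb, 0.687 for Pdgfa and Spp1, and -0.656 for Vegfa and Areg.

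Within Itga1+ NK cells, Vegfa and Spp1 were seen together less than apart. After thinning, an Spp1 UMI was found in 4.80%, 13.1% and 33.2% of cells with a Vegfa UMI and in 16.0%, 20.4% and 42.8% of cells without. The order was the same in each library, and it is a description over cells of the same sums. For Pdgfa the Spp1 shares were 12.5%, 33.3% and 48.6% of cells with it and 11.4%, 17.3% and 39.3% of cells without, on 16 and 18 Pdgfa cells in the KG+ libraries.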

How the data were processed

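Sorted TILs were profiled by 10x Chromium 3' v3 single-cell RNA-seq, which does not separate isoforms. The authors deposited unnormalized UMI counts for called cells. The submitters' processing notes name Cell Ranger 6.1.2 and mm10, and the file headers version 6.0.1. Cells passing the limits and exactly 1 gate were summed per library and class, and sums of under 10 cells were left out. Counts were tested with edgeR 4.0.16 in R 4.3.3 (TMM, filterByExpr, quasi-likelihood, Benjamini-Hochberg), with 15 sums in the class fit and 6 in each subset fit, after tests on simulated data. DESeq2 1.42.0 was an alternative. Sums of 1 library share its cells' tumor and preparation, so the library was the block, and the sums are paired by construction. CPM intervals are exact Poisson. Doublets were handled by leaving out cells that met several gates, with Scrublet scores (scanpy 1.11.5) as an alternative. All members were named, and up to 3 genes per list and comparison with the largest absolute log2 fold change among those called. Members and lists were chosen with earlier results of these data known.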

Additional observations from a re-analysis of the deposited data

Results flagged for a closer look

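The KR+ to KG+ difference of Csf1 pointed in opposite directions in different classes. The mean log2 ratio was 0.98 in CD8 T cells and 1.00 in Tregs, and -0.88 in NK cells, each larger in size than the difference between the KG+ libraries of that class. The difference between the classes was not tested, as there is 1 KR+ library. The NK ratio rests on 258 UMIs, against 8037 in CD8 T cells and 409 in Tregs. Within NK cells the ratio was not past the KG+ difference in Itga1+ cells (-0.68) or in cells with neither or both integrins (-0.62), and in Itgam+ cells it was 0.48, past it, on 22 UMIs. With TMM-scaled totals the Csf1 ratio over all NK cells (-0.70) was not past it either.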

How the results depend on the processing

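Of the 44 class results called, the count was 41 to 48 under other size factors, DESeq2, other filters, gates, doublet handling and adjustment, 31 with no replicate block, and 28 to 44 with 1 library left out (34 without KG+ library 1, 28 without KG+ library 2). Calls over all genes fell in every pair of classes without either KG+ library. Between NK and CD8 T cells they went from 2075 of 11907 to 954 of 12318 without KG+ library 1 and 889 of 11825 without KG+ library 2. Without the KR+ library they rose there to 4025 of 11966. With no replicate block calls over all genes fell in every pair of classes, to 1588 of 11907 between NK and CD8 T cells. Among the 6 pairs of lymphocyte classes, 30 were called with and 33 without the myeloid sums, an alternative chosen after seeing the data. Calls over all genes also rose in each of these pairs, from 2075 of 11907 to 3110 of 12582 between NK and CD8 T cells. NK subsets gave 3 calls, 2 with no replicate block and 3 to 4 with 1 library left out. CD8 T subsets gave 3 calls, 3 to 4 with 1 library left out, and 0 with no replicate block (Spp1, Csf1 and Csf2 at adjusted p = 0.274, 0.0929 and 0.150 by edgeR). Of all 12207 genes 40 were called between the CD8 T subsets with no block, against 3244 with it. Spp1 in Itga1+ over Itgam+ NK cells was at 0.0665 by edgeR with no block. Of all 9453 genes 2603 were called between these NK subsets with no block, against 3569 with it. The color count of 16 was 11 to 16. Leaving out a library gives no color value. Of 128 single-gene color values under other settings, 100 stayed within the SD of the 2 KG+ libraries of the ratio reported, 27 moved further and 1 reversed. Of 800 tested single-gene values that were called with or without the change, 691 kept direction and side of the threshold, 72 lost a call and 34 gained one. Pdgfa in CD8 T over γδ T cells ranged from -2.63 to 0.03 with 1 library left out (0.03 without the KR+ library), Pdgfb in CD8 T over myeloid cells was 0.16 with the top cell of each sum left out and ranged from -1.09 to 0.04 with 1 library left out (0.04 without KG+ library 2), and the color ratio of Pdgfa in Tregs was -1.72 with the highest 6% of Scrublet scores removed. The cause was not tested. Few UMIs limit how exactly the level is known for Csf2 in Tregs, γδ T cells and myeloid cells, and for Pdgfa and Csf1 in γδ T and myeloid cells.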

Other observations

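Cells outside the 5 classes also carried these factors. Their gates were set after the data were seen, and no test was run. CD4 T cells with no Foxp3 UMI (392, 380 and 193 cells) read 39.1, 4.79 and 18.1 CPM of Csf2, more than CD8 T cells in KG+ library 1 and the KR+ library. They read 113, 126 and 323 CPM of Areg, below Tregs in each library. This gate can also hold Tregs whose Foxp3 was not captured. In 3 mast cells or basophils of KG+ library 2 there were 44 Csf2 UMIs, a level of 1800 CPM, and all 9 such cells together had 31 Csf1 UMIs, or 261 CPM, and no Areg. Cells with the NK receptor gene Klrb1c but no Ncr1 UMI (1052 in KG+ library 1) read 370 CPM of Vegfa there, close to the 325 CPM of the NK class.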
